A study of Mus musculus with 18 samples.

Results

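The Zfp genes are the mouse genes whose symbol is Zfp followed by a number, and most of them code for proteins with repeated C2H2 zinc fingers. Members were the symbols of this form in the count table, with Zfp36 left out because it codes for an mRNA decay factor of another finger type, that had at least 10 raw counts in each of the 18 libraries. This rule kept 272 of 344 such symbols, out of 16314 symbols in the table. Members were thus selected on their raw counts in all 18 libraries, so a Zfp gene that is nearly silent in any 1 group could not enter, and levels close to the minimum are described without a test. The study measured mRNA by bulk RNA-seq in bone marrow-derived macrophages (BMDMs) of mice that lack prolyl endopeptidase (Prep-/-) and of heterozygous littermates (Prep+/-) on a C57BL6/J background. The controls therefore carry 1 disrupted Prep allele as well. Femoral bone marrow cells of both genotypes were grown for 7 days with 50 ng/ml M-CSF and then left without stimulus (M0), given 50 ng/ml LPS for 24 h (M1), or given 20 ng/ml IL-4 together with 20 ng/ml IL-13 for 24 h (M2). Each of the 6 groups held 3 replicates. The methods call the replicates biological. The age of the marrow donors and the number of animals behind the cultures are not given in the sources used here, so a p-value measures the spread between these libraries.

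Each C2H2 finger folds around a zinc ion and reads a short stretch of DNA, and an array of fingers reads a longer one. In many Zfp proteins a KRAB box precedes the fingers and recruits Trim28 (KAP1), which brings in the histone H3K9 methyltransferase Setdb1 and HP1 proteins and thereby silences the bound site, often a retroviral sequence. The genes of KRAB zinc finger proteins lie in tandem clusters that grew by duplication. Zfp proteins without the box include general promoter factors, corepressors and a few proteins that act on RNA or ribosomes.

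The libraries held 19068237 to 22598279 counts and 13096 to 13807 genes with a count, and edgeR's filter kept 12021 genes for the tests, all 272 members among them. Prep itself had a mean of 759 ± 132 normalized counts (SD, n = 3) in Prep+/- M0 and 38.6 ± 6.41 in Prep-/- M0, and it was lower in every Prep-/- library of each state than in any Prep+/- library. Of 7 macrophage markers all were present, with a summed level of 10922 to 49655 CPM, the count scaled by library size. This sum was higher in Prep-/- than in Prep+/- M0 (29992 to 49655 against 22394 to 25898 CPM), lower in Prep-/- than in Prep+/- M1 (25921 to 33656 against 37540 to 40538), and 13337 to 18912 against 10922 to 13409 in M2. Among markers of other cells, the T cell list (2 of 5 genes in the table) summed to 7.84 to 30.9 CPM in Prep-/- M0 and 0.876 to 1.15 CPM in Prep+/- M0. Cd4 carried that sum and Cd3d had at most 1 count in any library. The granulocyte precursor list (7 of 7 genes) summed to 37.6 to 77.3 CPM in Prep-/- M0 and 18.5 to 27.2 CPM in Prep+/- M0, and the B cell list (3 of 5 genes) to 9.78 to 11.97 and 3.59 to 5.51 CPM. In M1 the T cell list summed to 2.10 to 2.79 CPM in Prep-/- and 0.552 to 1.19 CPM in Prep+/- libraries, the B cell list to 4.44 to 5.93 and 1.74 to 2.12, and the granulocyte precursor list to 29.8 to 44.1 and 50.3 to 88.1. In M2 the T cell list summed to 1.58 to 2.39 and 0.184 to 0.509 CPM, while the B cell and granulocyte precursor lists overlapped. The stromal list (5 of 5 genes) ranged from 0.738 to 19.1 CPM in Prep-/- M0, and its lowest value there was in replicate 3. Low sums also occurred elsewhere, with 0.416 to 15.5 CPM in Prep+/- M2, 0.888 to 13.2 in Prep-/- M1 and 1.41 to 5.92 in Prep-/- M2. Replicate 3 of Prep-/- M0 was also the lowest of its group in the Zfp genes, so results of the M0 knockout comparison are given with and without it. The part of these cells and of this library in the results was not tested.

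Of the members, 163 coded for a protein with a KRAB box by a profile search and 108 for a protein without one, and 1 member (Zfp939) matched several loci and was not classed. The longest protein of a member held a median of 11 C2H2 fingers, 12 with the KRAB box and 7 without it, and up to 36. As transcripts the members were scarce. Their median level was 1.67 CPM per kilobase of the longest transcript, against 6.35 for all genes tested, and it was 1.34 for members with the KRAB box and 3.51 for those without. The highest level per kilobase belonged to Zfp706, a small nuclear protein, at 27.6 ± 9.05 CPM per kilobase (SD over 18 libraries). It was followed by Zfp414 at 20.99 ± 5.08, the ubiquitin ligase Zfp91 at 19.1 ± 3.13, the corepressor Zfp703 at 18.9 ± 4.94 and the ribosome assembly factor Zfp622 at 17.0 ± 4.95 CPM per kilobase. These means pool groups that differ. Zfp706 was first in 5 of the 6 groups, and in Prep-/- M1 the order began with Zfp263 at 27.7, Zfp414 at 21.6 and Zfp91 at 20.1 CPM per kilobase, with Zfp706 at 15.0. Per kilobase of the mean transcript length Zfp706 stayed first and Zfp710, at 27.5, was second. Below Zfp706, neighbours in the pooled order differed by less than their SD. The members just inside the rule were Zfp558, with 10 to 113 counts, Zfp708, with 11 to 38, and Zfp551, with 12 to 48. Just outside it were Zfp647 (9 to 43 counts), Zfp791 (9 to 89) and Zfp9 (9 to 35).

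Of the 7 members that were higher in Prep-/- BMDMs in all 3 states (given below), 6 had a promoter in the RefSeq table of mouse build GRCm38.p6, and 4 of these shared a sequence element. It is shown because it also turned out to be common among the members. The last 150 bases before the transcription start are printed 5′ to 3′ on the gene's strand, with the element in capitals.
Zfp455: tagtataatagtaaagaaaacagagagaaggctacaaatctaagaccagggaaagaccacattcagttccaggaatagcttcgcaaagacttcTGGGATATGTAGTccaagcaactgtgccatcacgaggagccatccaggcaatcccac
Zfp456: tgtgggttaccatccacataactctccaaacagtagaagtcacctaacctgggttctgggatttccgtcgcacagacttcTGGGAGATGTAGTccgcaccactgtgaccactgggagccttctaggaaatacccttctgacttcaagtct
Zfp85: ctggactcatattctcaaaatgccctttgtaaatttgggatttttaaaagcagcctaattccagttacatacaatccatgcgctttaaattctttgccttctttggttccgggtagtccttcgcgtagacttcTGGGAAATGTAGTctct
Zfp606: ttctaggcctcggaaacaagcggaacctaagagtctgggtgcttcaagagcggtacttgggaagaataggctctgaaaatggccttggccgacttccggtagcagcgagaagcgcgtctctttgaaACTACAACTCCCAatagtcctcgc
The windows are chr13:67194356-67194505 (plus strand) for Zfp455, chr13:67375764-67375913 (minus strand) for Zfp456, chr13:67755203-67755352 (minus strand) for Zfp85 and chr7:12478155-12478304 (plus strand) for Zfp606. The element is ACTACA followed, after any 2 bases, by TCCCA, and it reads on the opposite strand in the first 3 genes. Letters of this kind form part of the known site of Zfp143, a promoter factor that is itself a member. The pattern was written after these promoters had been read, so its count is a description. It occurred on either strand in the 300 bases around the start (250 before and 50 after) in 42 of the 230 members with an entry (18.3%), and in 17.0% of the 224 left without the 6 promoters first read, against 398 of 9681 genes tested (4.11%) and 1.69% of all genes in the promoter table. The share was 22.6% of 146 members with the KRAB box and 10.8% of 83 without it. On chromosome 13, 14 of the 14 cluster members with an entry held it. Zfp455, Zfp456 and Zfp85 belong to this cluster. Its other promoters remain among the 224, so the 17.0% is not free of the choice either. Of other short patterns searched on both strands, ACCGGAAGT, an ETS-type site, was in 6.96% of members and 2.59% of genes tested, and GGGCGG, the core of the GC box, in 50.4% and 67.9%. Zfp704 and Zfp934, described below, have no entry. A match is no evidence that a factor binds there.

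The Zfp genes as a group lay higher in Prep-/- than in Prep+/- BMDMs in each state. Relative to the mean of Prep+/- M0, the median member lay at 0.37, 0.50 and 0.14 on the log2 scale in Prep-/- M0 replicates 1 to 3. For M1 it lay at -0.13, -0.20 and -0.22 with the Prep+/- genotype and at 0.17, 0.12 and 0.05 with Prep-/-. For M2 the values were -0.12, -0.10 and -0.15 with Prep+/- and 0.17, 0.18 and 0.09 with Prep-/-. Thus no Prep-/- library reached down to a Prep+/- library of its own state, and replicate 3 was the lowest of each Prep-/- group. In Prep-/- M0 the median of members with the KRAB box was 0.43, 0.60 and 0.20, and that of members without it was 0.32, 0.33 and 0.00. Members together took 0.397% to 0.540% of the counts in Prep-/- M0 and 0.400% to 0.438% in Prep+/- M0, so that the raw share of replicate 3 lay under all 3 controls.

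**Figure D1:**
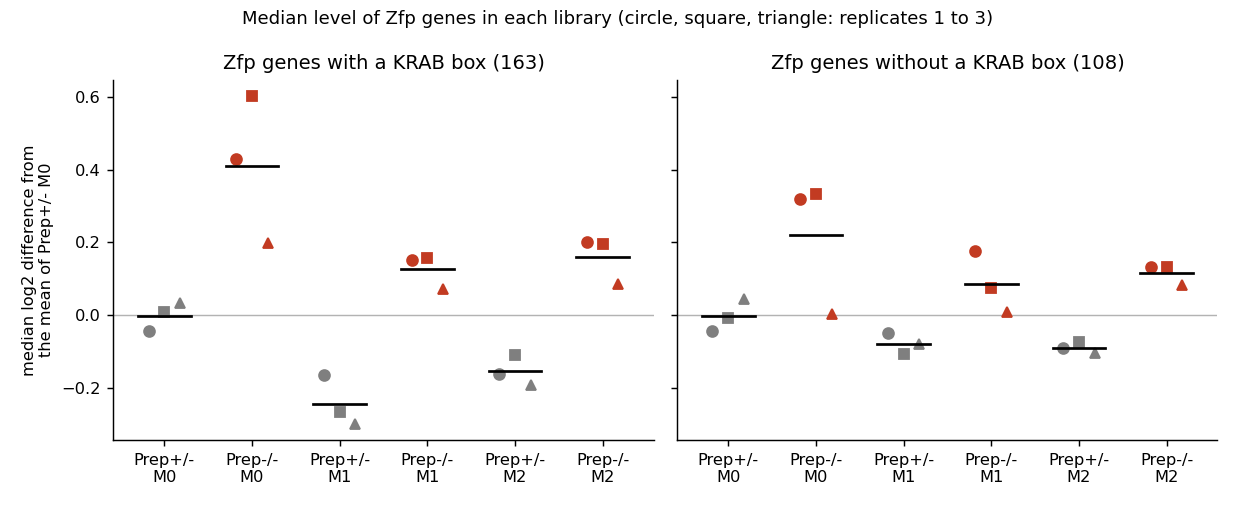
Median over the Zfp genes of each library's log2 difference from the mean of Prep+/- M0 (y axis, log2 units), for the 163 members with a KRAB box (left) and the 108 without one (right). Points are libraries (grey, Prep+/-, and red, Prep-/-), black lines the group means. Prep-/- points lie above the Prep+/- points of the same state in the left panel, with replicate 3 of Prep-/- M0 at 0.20, and in the right panel that replicate, at 0.00, falls among its controls.

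In M0, 67 members were higher and 8 were lower in Prep-/- BMDMs, where a call needs an adjusted p under 0.05 (edgeR's quasi-likelihood test with Benjamini-Hochberg adjustment over all genes) and a fold change over 1.5. The rest, 197, did not pass. Over all genes tested, 15.4% were called higher and 17.2% lower, so 24.6% and 2.94% of the members compare with a background that leans the other way. The median log2 fold change was 0.36 for members and 0.02 for all genes tested, and for the 10296 genes that met the same minimum of counts it was 0.02, with 14.9% higher and 16.8% lower. Of the members, 81.6% had a positive log2 fold change. Without replicate 3 of Prep-/- M0, 91 members were higher and 6 lower with a median of 0.46, and without replicate 2 the numbers were 56 and 13 with a median of 0.25.

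In M1, 62 members were higher and 6 were lower in Prep-/- BMDMs, beside 12.3% and 10.2% of all genes tested. The median log2 fold change was 0.33 for members and 0.04 for all genes tested. The number of higher members fell to 31 without Prep+/- M1 replicate 2. In M2, 20 members were higher and 2 were lower, beside 6.37% and 9.82% of all genes tested. Here 7.35% of the members were higher, a share near the background, while 0.735% were lower. The median log2 fold change was 0.29 for members against 0.03 for all genes tested, and 82.7% of the members had a positive value, so the shift in M2 consisted largely of changes too small to be called. With no minimum fold change, 53 members were higher and 3 lower in M2, but the share of all genes tested at that cutoff is not given here. The number higher ranged from 10 without Prep-/- M2 replicate 1 to 34 without Prep-/- M2 replicate 3.

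**Figure D2:**
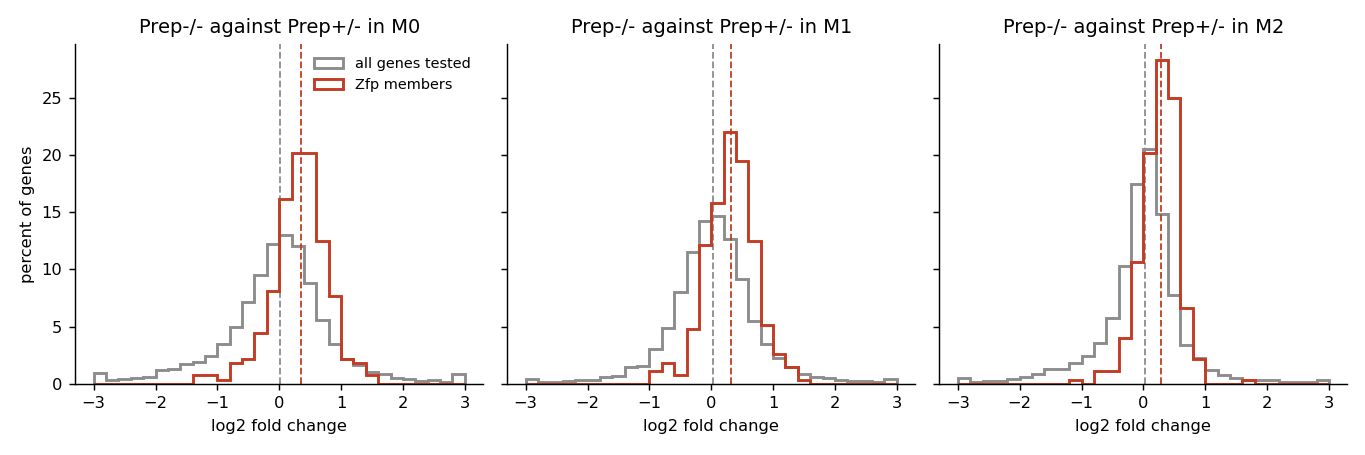
Distribution of log2 fold changes between Prep-/- and Prep+/- (x axis; values beyond the axis are drawn in the last bin) as percent of genes (y axis), for the 272 members (red) and all 12021 genes tested (grey) in M0, M1 and M2. Dashed lines are the medians, 0.36, 0.33 and 0.29 for the members and 0.02, 0.04 and 0.03 for all genes tested.

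Members with the KRAB box had the larger medians, 0.43, 0.38 and 0.32 for M0, M1 and M2, against 0.26, 0.22 and 0.22 without it. They were called higher in 28.8%, 25.8% and 9.20% of cases, and members without the box in 18.5%, 18.5% and 3.70%. The background, over all genes tested, was 15.4%, 12.3% and 6.37% higher and 17.2%, 10.2% and 9.82% lower. Members without the box were thus close to it in M0 and under it in M2 for the share called higher. The box was not used by the rule, but the difference between the classes was not tested. Members whose promoter held the element printed above had medians of 0.48, 0.47 and 0.41 for M0, M1 and M2, with 15, 16 and 6 of 42 called higher and 0 lower in each state. The element was read from genes chosen for their calls in all 3 states, 4 of which are among these 42, so the counts are not independent of that choice. Leaving out the 6 promoters first read, 11, 12 and 2 of 38 members with the element were called higher (28.9%, 31.6% and 5.26%), with medians of 0.45, 0.44 and 0.40. Of the 186 without it 42, 34 and 9 were called higher (22.6%, 18.3% and 4.84%), with medians of 0.31, 0.27 and 0.27. The M2 shares with and without the element were thus close to each other and under the background, and no difference was tested. The 38 still include other genes of the chromosome 13 cluster of Zfp455, Zfp456 and Zfp85, so they are not free of that choice either. Other families of zinc finger genes varied. The Zscan and Zkscan genes, which join a SCAN domain to C2H2 fingers, had medians of 0.53, 0.44 and 0.39 for M0, M1 and M2. Of these 16 genes 37.5%, 18.8% and 12.5% were called higher and 0 lower. The Zbtb genes, which join a BTB domain to such fingers, had medians of 0.27, 0.28 and 0.21. Of these 34 genes 14.7%, 26.5% and 5.88% were called higher, and 1, 0 and 0 genes lower. A positive median in all 3 states was thus not particular to the members. The Zc3h genes, whose fingers of another type bind RNA, had medians of 0.04, 0.16 and 0.16. Of these 15 genes 13.3%, 13.3% and 6.67% were called higher, near the background, and 1, 2 and 0 genes lower. The Klf genes, C2H2 factors that bind GC-rich promoter sites, had medians of -0.12, 0.62 and 0.00 for M0, M1 and M2. Of these 11 genes 27.3%, 54.5% and 9.09% were called higher, and 0, 1 and 0 genes lower.

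Across states, 113 members were higher in at least 1 state, 13 were lower in at least 1, and 150 were called in none. The log2 fold change was positive in all 3 states for 174 members and negative in all 3 for 13. Such combinations of states were not counted over all genes tested. The numbers in this paragraph therefore have no background and show nothing particular to the members. The 7 members Zfp704, Zfp263, Zfp455, Zfp456, Zfp85, Zfp606 and Zfp579 were called higher in each state, and Zfp934 was called lower in each.

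Zfp704, which codes for a protein with a single C2H2 finger (chr3:9492080-9675213 in GRCm39), showed the largest rise of any member in M1 and M2. In M0 the Prep+/- libraries had 325, 276 and 292 normalized counts of it and the Prep-/- libraries 788, 887 and 496. In M1, Prep+/- libraries had 39.9, 36.9 and 48.7 against 153, 101 and 82.9, and for M2 these numbers were 366, 485 and 309 against 1537, 1279 and 834. The genotypes did not overlap in any state. Its log2 fold changes for M0, M1 and M2 were 1.28 ± 0.25 (SE), 1.43 ± 0.32 and 1.65 ± 0.25, with edgeR adjusted p of 0.000602, 0.00298 and 0.000207, and the call held when any 1 library was left out. Antisense non-coding transcripts overlap this gene, and how the counting used strand is not given in the sources used here.

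Zfp263, a promoter factor in whose protein the profile found no KRAB box, was among the more abundant members (chr16:3561921-3568654). Normalized counts in M0 were 571, 709 and 703 for Prep+/- libraries against 2034, 1361 and 727 for Prep-/- libraries. The third Prep-/- library barely exceeded the controls, while the first was far above them. For M1 they were 1204, 1015 and 1114 against 2253, 1856 and 1761, and for M2 530, 571 and 638 against 1097, 1056 and 953. The genotypes were well apart in both stimulated states. Its log2 fold changes for M0, M1 and M2 were 1.05 ± 0.24, 0.82 ± 0.24 and 0.84 ± 0.24, with edgeR adjusted p of 0.00181, 0.0144 and 0.018. The call was lost in M1 without Prep+/- M1 replicate 2 (adjusted p = 0.0573) or Prep-/- M1 replicate 1 (0.067), and in M2 without Prep+/- M2 replicate 1 (0.0615) or 2 (0.0615) or Prep-/- M2 replicate 1 (0.0551).

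Zfp455, Zfp456 and Zfp85 are KRAB genes of 1 cluster on chromosome 13, at chr13:67342561-67357362, chr13:67510232-67523946 and chr13:67892584-67903347 in GRCm39. In M0, Zfp455 had 70.4, 61.0 and 72.1 normalized counts with the Prep+/- genotype against 155, 161 and 163 with Prep-/-. It had 88.9, 64.2 and 64.1 against 139, 102 and 117 in M1, and 90.2, 68.4 and 71.7 against 133, 130.1 and 104 in M2. The genotypes were apart in each state, most widely in M0. Zfp456 had 65.6, 72.7 and 76.3 against 136, 164 and 145 in M0, 87.7, 80.9 and 85.9 against 221, 121 and 143 in M1, and 66.8, 75.5 and 57.6 against 100.1, 102 and 99.4 in M2. Zfp85 had 43.4, 50.9 and 31.4 against 93.3, 91.2 and 69.3 in M0, 30.8, 35.7 and 32.1 against 73.7, 48.0 and 45.2 in M1, and 56.8, 46.2 and 28.3 against 72.4, 89.9 and 82.2 in M2. Neither gene's genotypes overlapped in any state, and the smallest gaps were in M1 for Zfp85 and in M2 for both.

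The log2 fold changes in M0, M1 and M2 were 1.23 ± 0.18, 0.72 ± 0.18 and 0.67 ± 0.18 for Zfp455, 1.05 ± 0.20, 0.93 ± 0.20 and 0.59 ± 0.20 for Zfp456, and 1.01 ± 0.26, 0.76 ± 0.28 and 0.89 ± 0.26 for Zfp85. The M0 calls of these genes held when any 1 library was left out, with adjusted p up to 0.0303 (edgeR), while other calls depended on single libraries. In M2 the call of Zfp456 was lost in 5 of 6 such fits (adjusted p up to 0.139), that of Zfp85 in 3 (up to 0.0955) and that of Zfp455 in 2 (up to 0.0662). In M1 the call of Zfp85 was lost in 5 of 6 (up to 0.234), and also with other size factors (0.0517). With a replicate block in M2, where same-numbered libraries of the genotypes correlated above 0.1, the edgeR adjusted p was 0.0671 for Zfp456 and 0.0591 for Zfp85. Zfp456 shares 74.2% of its longest transcript with near-identical stretches of other genes, so reads may have been split between them, and Zfp455 shares 9.004%.

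Zfp606, a KRAB gene (chr7:12212220-12230162), and Zfp579, which has no KRAB box (chr7:4986482-4999157), had smaller log2 fold changes in M0 than the other 5. In Prep+/- against Prep-/- libraries, Zfp606 had 99.4, 86.9 and 94.2 against 145, 187 and 162 normalized counts in M0, 55.8, 70.2 and 38.5 against 86.9, 88.6 and 74.3 in M1, and 88.4, 74.6 and 74.6 against 146, 128 and 93.3 in M2. Zfp579 had 217, 183 and 180 against 457, 307 and 285 in M0, 117, 123 and 142 against 212, 213 and 202 in M1, and 200.3, 202 and 160 against 346, 354 and 256 in M2. The genotypes did not overlap for either gene, though the gaps of Zfp606 in M1 and M2 were narrow. The log2 fold changes in M0, M1 and M2 were 0.82 ± 0.20, 0.60 ± 0.22 and 0.63 ± 0.21 for Zfp606 and 0.86 ± 0.18, 0.72 ± 0.19 and 0.76 ± 0.18 for Zfp579. All calls of Zfp579 held when any 1 library was left out. Those of Zfp606 held in M0 and were lost in 5 of 6 such fits in each of M1 (adjusted p up to 0.209) and M2 (up to 0.176), and the M1 call was also lost with other size factors (0.0554) and the M2 call with the replicate block (0.0598).

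Zfp934, a KRAB gene on chromosome 13 outside that cluster (chr13:62620860-62719013), moved the other way. Prep+/- libraries of M0 had 73.3, 97.7 and 98.4 normalized counts against 40.1, 46.1 and 42.0 for Prep-/-. Counts for M1 were 59.2, 51.2 and 73.1 against 41.8, 30.9 and 35.5, and for M2 59.5, 54.1 and 68.9 against 18.1, 26.4 and 38.5. All Prep-/- libraries lay under all Prep+/- libraries of the same state. Its log2 fold changes for M0, M1 and M2 were -1.07 ± 0.24, -0.76 ± 0.25 and -1.13 ± 0.25 (edgeR adjusted p = 0.00158, 0.0273 and 0.00387), and the M1 call was lost in 3 of 6 fits without 1 library (up to 0.106).

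**Figure D3:**
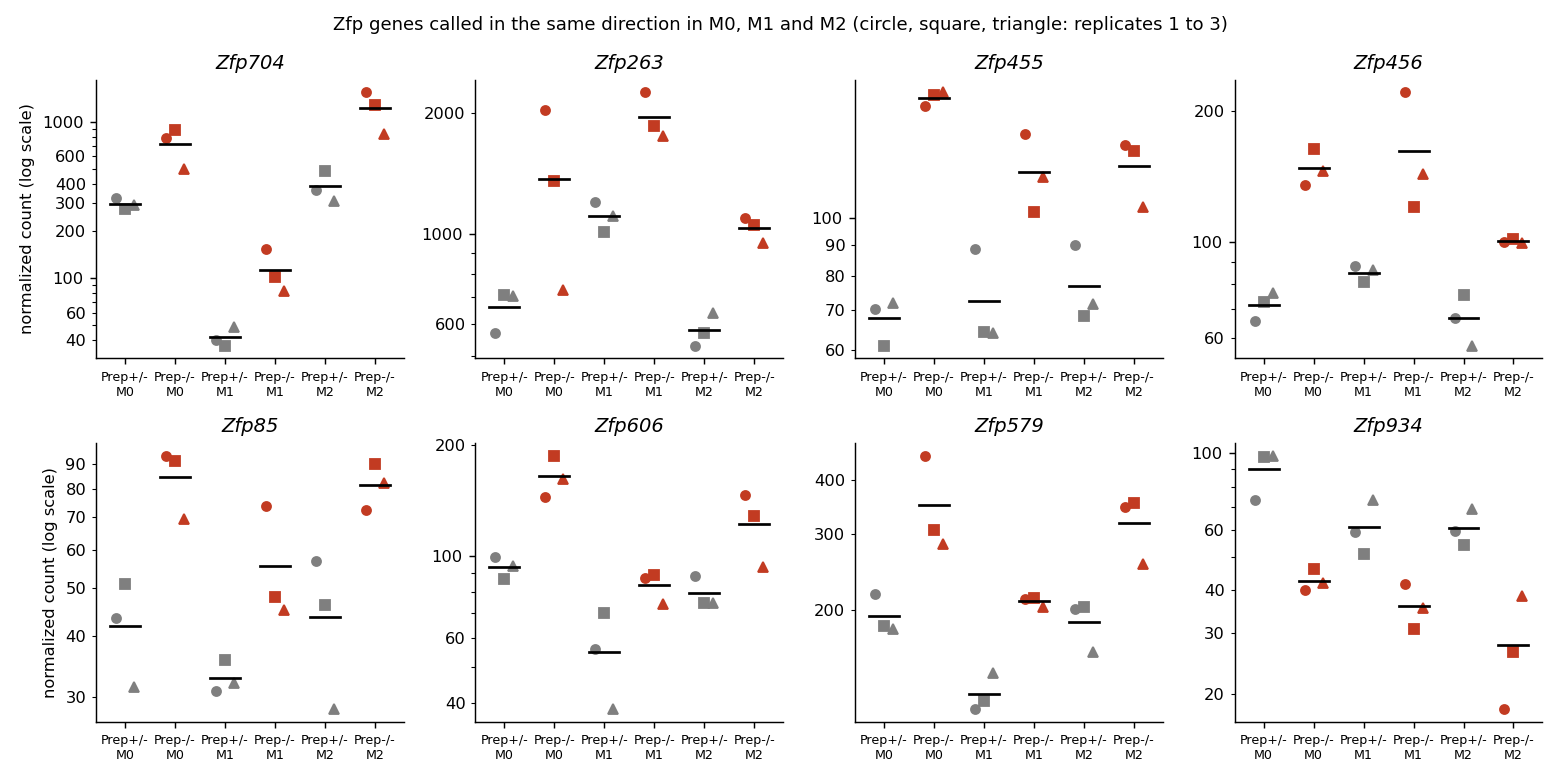
Normalized counts (y axis, log scale, scaled separately for each gene) of the 8 members called in 1 direction in all 3 states, by genotype and state. Points are libraries (grey, Prep+/-, and red, Prep-/-, with circle, square and triangle for replicates 1 to 3) and black lines group means. In each panel and state the genotypes do not overlap, red lies above grey for 7 genes and below grey for Zfp934.

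Other large changes belonged to 1 or 2 states. In M0 the largest rises were those of Zfp524 (log2 fold change 1.49 ± 0.21, 364, 269 and 276 against 836, 700 and 1006 normalized counts), the KRAB gene Zfp113 (1.43 ± 0.24, 84.9, 71.0 and 78.9 against 194, 210 and 229), Zfp358 (1.34 ± 0.17) and the KRAB gene Zfp658 (1.31 ± 0.30). Among the falls, the largest were those of Zfp367, a factor known as ZFF29, from 763, 818 and 889 to 269, 323 and 395 normalized counts (-1.32 ± 0.18), and of the KRAB gene Zfp382, from 293, 336 and 377 to 133, 172 and 104 (-1.30 ± 0.20). For all 6 the genotypes did not overlap and the edgeR adjusted p was at most 0.00182. Zfp608, a relative of Zfp609, fell by 1.11 (SE 0.38, adjusted p = 0.0222, lost without Prep+/- M0 replicate 3 at 0.0869 or Prep-/- M0 replicate 3 at 0.0687) and the KRAB gene Zfp948 by 0.88 (SE 0.22, adjusted p = 0.00363). Zfp524 lies head to head with Fiz1 and shares 44.9% of its longest transcript with other genes.

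In M1 the largest rises after Zfp704 were those of Zfp174 (1.35 ± 0.31), Zfp800 (1.28 ± 0.23), the KRAB gene Zfp712 of the chromosome 13 cluster (1.23 ± 0.29) and Zfp629 (1.20 ± 0.22). Zfp800 had 433, 277 and 340 normalized counts in Prep+/- M1 and 1103, 682 and 775 in Prep-/- M1, without overlap. The falls in M1 were those of Zfp658 (-0.98 ± 0.31), Zfp784 (-0.85 ± 0.21), the ribosome assembly factor Zfp593 (-0.80 ± 0.18), Zfp934, Zfp672 (-0.67 ± 0.16) and the spindle protein Zfp207, also named BuGZ (-0.63 ± 0.12). Without Prep-/- M1 replicate 1 the log2 fold change of Zfp672 was -0.55 and that of Zfp207 -0.57, under the fold required, as was that of Zfp207 (-0.57) without Prep+/- M1 replicate 3. Zfp784 and Zfp593 share 94.7% and 61.8% of their longest transcripts with an overlapping gene on the other strand. In M2 the rises after Zfp704 were those of Zfp971 (0.94 ± 0.33, lost in 5 of 6 fits without 1 library, with adjusted p up to 0.122), Zfp85, Zfp263 and Zfp939 (0.82 ± 0.27), whose symbol matches several loci and whose call was lost with the replicate block (adjusted p = 0.0564) and in 3 of 6 fits without 1 library (up to 0.135). The falls were those of Zfp934 and Zfp367 (-0.78 ± 0.17).

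By role, 23 promoter factors and corepressors were listed as lacking a KRAB box, among them Zfp263, in whose protein the profile found none. They had median log2 fold changes of 0.23, 0.18 and 0.20 for M0, M1 and M2, with 5, 4 and 1 higher and 2, 0 and 1 lower. The higher ones were 21.7%, 17.4% and 4.35% of the list, beside 15.4%, 12.3% and 6.37% of all genes tested. Zfp219, a transcriptional repressor, was higher by 0.93 ± 0.16 in M0 and 0.90 ± 0.16 in M1, and Zfp467 by 1.20 ± 0.18 in M0. The CoREST-associated repressor Zfp217 was higher by 0.65 ± 0.19 in both M0 and M1, but fell under the fold required without Prep-/- M0 replicate 1 (0.56) or 2 (0.52), and its M1 call was lost in 3 of 6 fits without 1 library (adjusted p up to 0.0724). Zfp143 had 214, 276 and 271 normalized counts with Prep+/- against 280.0, 268 and 161 with Prep-/- in M0, and 339, 337 and 328 against 600, 447 and 411 in M1. Its genotypes overlapped in M0 and were apart in M1, where the log2 fold change of 0.54 ± 0.18 (edgeR adjusted p = 0.0278) did not reach the fold required. A list of 11 members for RNA, ribosome or ubiquitin roles also held the spindle protein Zfp207 and the small nuclear protein Zfp706. It had medians of 0.06, -0.07 and 0.12. In M0 and M1, 9.09% of the list was called higher, beside 15.4% and 12.3% of all genes tested. In M1 18.2% was lower, beside 10.2%. Of this list, Zfp622 was higher in M0 (0.65 ± 0.13), the RNA-binding protein Zfp106 in M1 (0.59 ± 0.14, at the fold minimum, so that the call was lost in 4 of 6 fits without 1 library at 0.51 to 0.56), and Zfp593 and Zfp207 were lower in M1. A list of 7 KRAB genes held those with a known target and Zfp110, a neurotrophin receptor interacting factor. Of these, 1 was called higher, Zfp445, a guardian of imprints, in M1 (0.69 ± 0.25, lost in 4 of 6 fits without 1 library, with edgeR adjusted p up to 0.149). That is 14.3% of the list, near the 12.3% of all genes tested. Zfp809, which silences murine leukaemia proviruses, had log2 fold changes of 0.10, -0.18 and -0.25, none called.

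LPS lowered Zfp genes more often than it raised them, in both genotypes. In Prep+/- BMDMs, 11 members were higher and 45 lower in M1 than in M0, beside 16.7% and 20.9% of all genes tested, and 4.04% of the members were higher and 16.5% lower. In Prep-/- BMDMs, 20 were higher and 66 lower, beside 20.9% and 21% of all genes tested, and 7.35% of the members were higher and 24.3% lower. Among members, the share that fell lay near the background, and the share that rose lay under it. The median log2 fold change of members was -0.19 for Prep+/- and -0.20 for Prep-/-, and over all genes tested it was -0.03 and 0.00. For Prep+/- it became 0.01 once the trend of fold change with mean level over all genes was removed. Without Prep-/- M0 replicate 3, 11 members were higher in the Prep-/- comparison, and without replicate 2, 31 were. The 2 comparisons share no library, and 28 members were called lower and 7 higher in both. The 28 are 62.2% of the 45 lower in Prep+/- and 42.4% of the 66 lower in Prep-/- BMDMs. This overlap was not counted over all genes tested, so it shows nothing particular to Zfp genes.

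**Figure D4:**
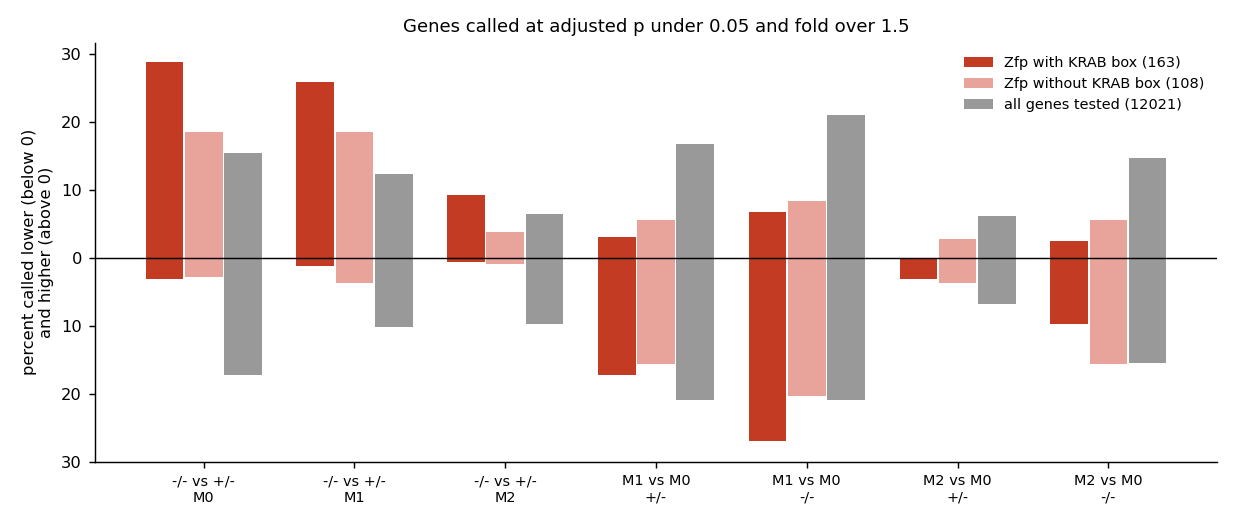
Percent of genes called higher (bars above 0) and lower (bars below 0) in each comparison between genotypes or states (x axis), for members with a KRAB box (red), members without it (pink) and all genes tested (grey). Between genotypes the red bars above 0 reach 28.8%, 25.8% and 9.20%, and between states the red and pink bars above 0 stay under the grey ones.

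Zfp395 and Zfp704 showed the largest falls with LPS. Zfp395, a single-finger protein, went from 927, 810.1 and 827 normalized counts to 138, 139 and 151 in Prep+/- cultures, and from 1396, 1256 and 1436 to 228, 254 and 242 in Prep-/- cultures. States were apart about as widely in both genotypes, with log2 fold changes of -2.58 ± 0.14 and -2.50 ± 0.14 (edgeR adjusted p = 6.94e-10 and 5.88e-10). Zfp704, whose values are given above, fell by 2.83 (SE 0.30) in Prep+/- and by 2.69 (SE 0.27) in Prep-/- BMDMs. Zfp629 changed by -1.98 ± 0.21 in Prep+/- and -1.44 ± 0.20 in Prep-/- BMDMs. The KRAB gene Zfp101 went from 169, 192 and 204 to 45.6, 63.1 and 48.7 in Prep+/- cultures and from 150, 211 and 134 to 51.7, 43.8 and 42.0 in Prep-/- cultures. No M1 library reached an M0 library, and its log2 fold change with LPS was -1.84 ± 0.18 and -1.85 ± 0.19. Zfp113 fell by 1.47 (SE 0.27) in Prep+/- and by 2.15 (SE 0.26) in Prep-/- BMDMs.

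A few members rose with LPS in both genotypes. The KRAB gene Zfp558 went from 22.2, 22.5 and 33.9 normalized counts to 98.0, 133 and 145 in Prep+/- cultures and from 31.1, 33.7 and 17.6 to 58.3, 82.2 and 89.4 in Prep-/- cultures. All M1 libraries lay above all M0 libraries, and the log2 fold change was 2.25 ± 0.31 and 1.47 ± 0.31 (edgeR adjusted p = 1.27e-05 and 0.000709), from counts close to the minimum of the rule. Zfp281, a GC-box binding factor, rose from 293, 333 and 364 to 735, 807 and 677 in Prep+/- and from 363, 350 and 311 to 777, 642 and 697 in Prep-/- BMDMs (log2 fold changes 1.16 ± 0.13 and 1.05 ± 0.13). Its relative Zfp148 had log2 fold changes of -0.31 ± 0.11 and -0.13 ± 0.11 and was not called. Zfp821 rose by 1.43 ± 0.19 and 1.10 ± 0.19, and the NET family repressor Zfp503 by 1.02 ± 0.27 and 1.48 ± 0.28. Zfp719 was called higher in Prep+/- BMDMs (1.14 ± 0.23) and had 0.45 ± 0.22 in Prep-/-, and Zfp800 was called higher in Prep-/- BMDMs (1.25 ± 0.23) and had 0.32 ± 0.23 in Prep+/-.

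IL-4 and IL-13 changed fewer members. In Prep+/- BMDMs, 3 were higher and 9 lower in M2 than in M0, beside 6.09% and 6.77% of all genes tested. In Prep-/- BMDMs, 10 were higher and 33 lower, beside 14.7% and 15.5%. As shares of the members these were 1.10% higher and 3.31% lower for Prep+/-, and 3.68% higher and 12.1% lower for Prep-/-, under the background in each direction. The median log2 fold change was -0.14 and -0.19. Without Prep-/- M0 replicate 3 there were 4 higher and 52 lower members in Prep-/- BMDMs, and with only the 6 libraries compared there were 6 and 21. At the latter setting 1302 of 11433 genes were higher and 1276 lower. The member called higher in both genotypes was Zfp609, a partner of the cohesin loader and Integrator, which went from 160.1, 231 and 197 normalized counts to 319, 451 and 340 in Prep+/- cultures and from 192, 248 and 145 to 503, 612 and 432 in Prep-/- cultures. The states did not overlap in either genotype, and the log2 fold change was 0.92 ± 0.22 and 1.40 ± 0.22. Lower in both were Zfp229 (-0.93 ± 0.30 and -1.18 ± 0.30, the former lost in 5 of 6 fits without 1 library, with adjusted p up to 0.197), Zfp467 (-0.80 ± 0.18 and -1.50 ± 0.18), Zfp821 (-0.79 ± 0.20 and -1.27 ± 0.20), which rose with LPS, and Zfp974 (-0.60 ± 0.16 and -0.97 ± 0.15), named after its values were seen. Zfp703 and Zfp706 rose in Prep+/- BMDMs by 0.62 ± 0.11 and 0.61 ± 0.09, close to the fold required. Zfp703 fell under it without Prep+/- M0 replicate 1 (0.57), and Zfp706 without Prep+/- M0 replicate 2 (0.58) or Prep+/- M2 replicate 3 (0.56).

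For some members the difference between genotypes depended on the state. The difference of the knockout effect between M1 and M0, tested as an interaction, was called for 21 members, 7 higher and 14 lower, beside 12% and 9.15% of all genes tested. Between M2 and M0 it was called for 1 higher and 4 lower, beside 4.53% and 4.13%. The medians were -0.02 and -0.07, and members were called less often than all genes in both directions. In 4 members, Zfp382, Zfp41, Zfp658 and Zfp784, the genotype difference was called in opposite directions in M0 and M1. From M0 to M1, Zfp382 went from 293, 336 and 377 normalized counts to 145, 115 and 115 in Prep+/- cultures but from 133, 172 and 104 to 276, 205 and 166 in Prep-/- cultures. Prep+/- libraries were thus the higher ones in M0 and the lower ones in M1, and the interaction was 2.08 ± 0.28 (log2, edgeR adjusted p = 0.000112). The rise of Zfp382 within M1 was lost without Prep-/- M1 replicate 1 (adjusted p = 0.0541). Zfp41 had 161, 167 and 170.5 against 88.3, 132 and 83.0 in M0 and 67.2, 53.5 and 60.3 against 122, 112 and 112 in M1, with an interaction of 1.65 ± 0.25 (adjusted p = 0.000257).

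Zfp658 and Zfp784 showed the reverse order. Zfp658 had 107, 91.0 and 95.8 normalized counts with Prep+/- against 235, 299 and 192 with Prep-/- in M0, and 133, 107 and 137 against 33.0, 92.8 and 64.6 in M1. The interaction was -2.29 ± 0.43 (edgeR adjusted p = 0.00145), and the fall within M1 was lost without Prep-/- M1 replicate 1 (adjusted p = 0.102) or Prep+/- M1 replicate 3 (0.0648). Zfp784 had 65.6, 60.1 and 51.7 against 130.5, 121 and 111 in M0 and 50.1, 71.4 and 56.4 against 29.7, 37.4 and 31.2 in M1 (interaction -1.89 ± 0.29, adjusted p = 0.000312). In both genes the genotypes were apart in both states. Zfp524 lost its difference with LPS, with 288, 358 and 273 normalized counts against 340, 252 and 318 in M1, which overlap (interaction -1.50 ± 0.29, adjusted p = 0.00179). The interactions of these 5 genes between M1 and M0 held when any 1 library was left out.

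**Figure D5:**
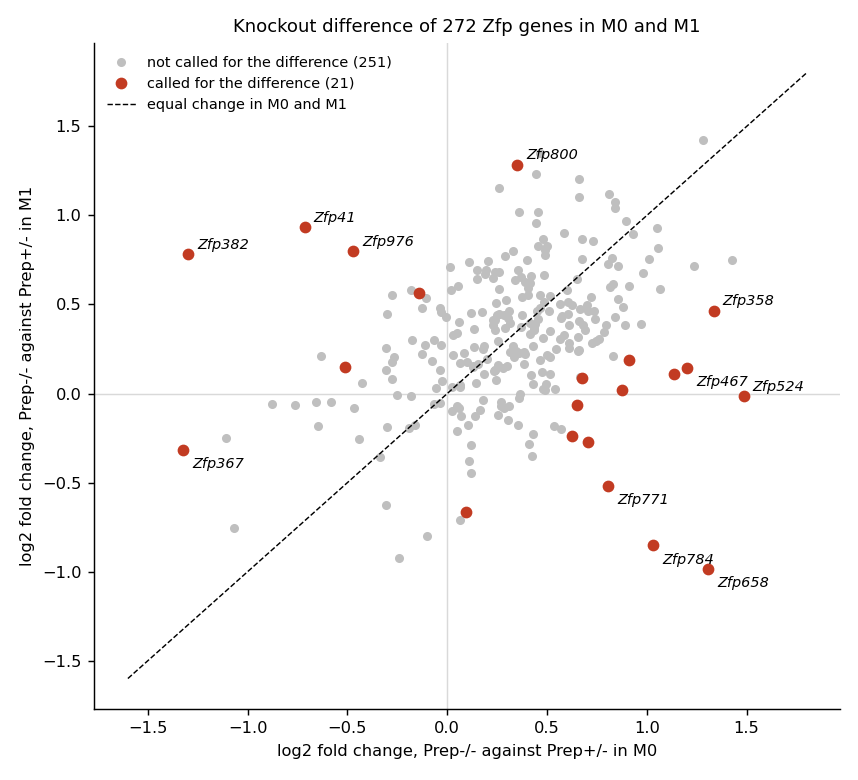
Log2 fold change between Prep-/- and Prep+/- in M0 (x axis) and M1 (y axis) for the 272 members. Red points are the 21 members called for the difference between the states, grey points the other 251, and the dashed line marks equal change. Zfp382 and Zfp41 lie at the upper left, Zfp784 and Zfp658 at the lower right.

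By position, 121 of the 271 members with a locus lay in 13 clusters of at least 5 members with gaps of at most 500000 bases, and 72 lay on chromosome 7. In the cluster at chr13:67186660-67975804 (GRCm39), all 16 members carry a KRAB box. Its median log2 fold changes between genotypes for M0, M1 and M2 were 0.59, 0.56 and 0.45, with 7, 6 and 4 members called higher and 0 lower, and 15, 16 and 16 of 16 had a positive value. Between M1 and M0 in Prep+/- BMDMs 1 of them was called higher and 1 lower, beside 16.7% and 20.9% of all genes tested. Their median there was -0.25. The largest cluster, at chr17:21229165-23783215, holds 21 members, each with a KRAB box, with medians of 0.48, 0.31 and 0.29, and 7, 5 and 1 called higher and 1, 0 and 0 lower. Between genotypes, 15.4%, 12.3% and 6.37% of all genes tested were called higher and 17.2%, 10.2% and 9.82% lower. The 1 of 21 called higher in M2 lay under that share. A cluster without KRAB boxes, at chr7:4918183-5056722, holds Zfp524, Zfp579 and Zfp784 among 6 members, with medians of 0.70, 0.14 and 0.28, and 2 of the 6 fell with LPS in Prep+/- BMDMs (median -0.14) and 5 of the 6 in Prep-/- BMDMs (median -0.70). In the cluster at chr6:47812595-48600161, 5 of 8 members fell with LPS in Prep+/- BMDMs (median -0.73) and 3 of 8 in Prep-/- BMDMs (median -0.50). Over all genes tested, 20.9% and 21% were called lower with LPS in Prep+/- and Prep-/- BMDMs. Neighbouring members share sequence, so their values are not independent.

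KRAB zinc finger proteins act through shared partners. A wider list of corepressor and chromatin genes was more often called lower than higher in Prep-/- BMDMs in M0 and M2. Trim28 and Setdb1 themselves were not called between genotypes in any state, but Trim28 was lower in each at an adjusted p under 0.05. Of 30 listed corepressor genes, 1 was higher and 10 lower in Prep-/- M0 (33.3% lower, beside 17.2% of all genes tested), with a median of -0.31. In M1, 2 were higher and 3 lower (close to the 10.2% lower among all genes tested) with a median of -0.05, and in M2, 1 was higher and 8 lower (26.7%, beside 9.82%) with a median of -0.12. Trim28, the scaffold, had 3978, 3979 and 3782 normalized counts with Prep+/- against 2599, 2394 and 2850.4 with Prep-/- in M0. These do not overlap, but the log2 fold change of -0.58 ± 0.10 (edgeR adjusted p = 0.00024) fell just short of the fold required. In M1 and M2 it was -0.35 ± 0.10 and -0.45 ± 0.10 (edgeR adjusted p = 0.0154 and 0.00412), also under that fold. The genotypes did not overlap there either, with 3263, 3353 and 3366 against 2204, 2226 and 2864 normalized counts in M2. With LPS Trim28 fell by 0.88 (SE 0.10) in Prep+/- and by 0.65 (SE 0.10) in Prep-/- BMDMs. Setdb1, the methyltransferase it recruits, had log2 fold changes of -0.06 ± 0.13, -0.02 ± 0.13 and 0.00 ± 0.13 in M0, M1 and M2. The genes that fell in M0 included Cbx5, which codes for HP1 alpha (-2.07 ± 0.19), the subunits Chaf1a (-2.20 ± 0.22) and Chaf1b (-1.98 ± 0.13) of the chromatin assembly factor, and Uhrf1 (-3.26 ± 0.45) and Dnmt1 (-1.67 ± 0.16), which keep up DNA methylation. Daxx was the gene called higher in M0 (0.72 ± 0.19), and Resf1 (0.51 ± 0.15) and Tasor (0.48 ± 0.14) rose without reaching the fold required. The paper reports lower DNA replication pathways in Prep-/- BMDMs in M1 and M2. How far the genes that fell belong with these pathways was not tested. Fewer cells of a kind and less RNA per cell cannot be told apart in bulk libraries.

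The pairs of members with the most alike profiles, by Pearson's r of log2 CPM across the 18 libraries, were Zfp282 with Zfp760 (0.96), Zfp395 with Zfp422 (0.96) and Zfp219 with Zfp579 (0.96). The points share the 6 groups, so the values contain the differences between groups. The 38 Zfp symbols that were tested but missed the minimum of 10 counts had medians of -0.11, 0.10 and 0.22 between genotypes in M0, M1 and M2, with 7, 5 and 3 called higher and 3, 2 and 1 lower. The higher shares, 18.4%, 13.2% and 7.89%, lay near the 15.4%, 12.3% and 6.37% of all genes tested. The lower shares, 7.89%, 5.26% and 2.63%, lay under the 17.2%, 10.2% and 9.82% of all genes tested.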

How the data were processed

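Bulk RNA-seq of 18 BMDM libraries was analysed, grouped by the genotype and treatment given in the labels, and every column of the table matched 1 sample. The authors trimmed the reads (Trimmomatic 0.36), aligned them to GRCm39 (HISAT2 2.2.1.0, versions per the submitters' processing notes), assembled them with stringtie2 and deposited whole-number counts per gene symbol without normalization. The kit was stranded, and the handling of strand and of reads with several matches in counting is not given in the sources used here. Everything below was computed from those counts.

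Genes were filtered with filterByExpr on the 6 groups and scaled by TMM (factors 0.818 to 1.20). Differences were tested with the quasi-likelihood method of edgeR (4.0.16, with limma 3.58.1 under R 4.3.3) in a model that held the 18 libraries and a term for each of the 6 groups, with Benjamini-Hochberg adjustment over all 12021 genes. Normalized counts are counts divided by the TMM-scaled library size and multiplied by the mean of these sizes. The study's own methods used DESeq2, run here as an alternative (1.42.0). Other alternatives were DESeq2-type size factors, no filter, only the libraries compared, a replicate block, no minimum fold, all tested Zfp symbols, and leaving out each library, and after the data had been seen the removal of a lowess trend with transcript length or mean level. The fit was checked on simulated counts.

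The members, gene lists and tests were chosen with earlier results of these data known. Members named are those with up to 5 largest rises and falls per comparison without overlap of libraries, those called in all 3 states, up to 5 largest interactions, the 5 highest levels, neighbours of the minimum, the role lists, the corepressors and the most alike pairs. Members of clusters and the promoter element were chosen after their values or sequences had been seen. Positions and lengths come from GENCODE vM39, also GRCm39, where 15636 symbols matched directly, 104 by an older symbol, 38 matched several loci and 536 did not match. KRAB boxes were found with HMMER 3.4 (profile of 82 seed sequences, E of at most 0.001), and shared stretches (at least 150 bases at 95% identity) with blastn 2.17.0. Such stretches covered over 10% of the longest transcript in 89 members and over 50% in 17. The promoter table matched 230 members.

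Whether replicate numbers pair the libraries was checked from how same-numbered libraries deviated together. Every pair's correlation passed 0.1 for the genotypes in M2 (0.249, 0.255 and 0.462) and for LPS in Prep-/- cultures (0.201, 0.169 and 0.259). Libraries of different numbers were not correlated for comparison and the labels name no pairs, so pairing is not established there. With the block, 16 members were higher and 2 lower for the former, and 19 higher and 66 lower for the latter. Over all genes, 753 were higher and 1137 lower of 11401 for the former. For the latter 2348 were higher and 2473 lower of 11498. In the other comparisons not every pair passed 0.1, which does not exclude pairing, and block counts are given there as an alternative.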

Additional observations from a re-analysis of the deposited data

Results flagged for a closer look

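For 21 members the difference between Prep-/- and Prep+/- BMDMs itself differed between M1 and M0, by an interaction term in the edgeR fit. The log2 difference between the knockout effects was negative for Zfp658 (-2.29), Zfp784 (-1.89), Zfp524 (-1.50), Zfp771 (-1.32), Zfp467 (-1.06), Zfp959 (-1.02), Zfp90 (-0.98), Zfp358 (-0.87), Zfp709 (-0.86), Zfp935 (-0.85), Zfp672 (-0.76), Zfp277 (-0.73), Zfp622 (-0.72) and Zfp626 (-0.59). It was positive for Zfp91 (0.66), Zfp956 (0.71), Zfp800 (0.93), Zfp367 (1.01), Zfp976 (1.27), Zfp41 (1.65) and Zfp382 (2.08). When each of the 12 libraries was left out in turn, the call was lost in 9 fits for Zfp976, 7 for Zfp800, 5 for Zfp672 and 2 for Zfp91. Between M2 and M0 the knockout effect differed for Zfp524 (-0.96), Zfp358 (-0.87), Zfp277 (-0.70), Zfp395 (-0.63) and Zfp382 (1.29), and these calls were lost in 9, 6, 1, 7 and 0 of 12 such fits. Groups held 3 libraries each, too few to test single libraries for standing apart.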

How the results depend on the processing

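The members' median between genotypes stayed positive in M0, M1 and M2 under every alternative run. Leaving out 1 library gave 56 to 91 higher and 6 to 13 lower members in M0 (median 0.25 to 0.46), 31 to 63 and 3 to 7 in M1 (0.30 to 0.35), and 10 to 34 and 2 to 3 in M2 (0.26 to 0.30). For LPS it gave 9 to 15 higher and 42 to 54 lower in Prep+/- (-0.25 to -0.17) and 11 to 31 and 61 to 76 in Prep-/- cultures (-0.33 to -0.15). For IL-4 and IL-13 it gave 2 to 4 and 5 to 10 in Prep+/- (-0.16 to -0.14) and 4 to 16 and 28 to 52 in Prep-/- cultures (-0.28 to -0.15). The interactions gave 3 to 14 and 10 to 16 for M1 (-0.09 to 0.07), and 1 to 5 and 0 to 5 for M2 (-0.13 to 0.02), so the sign of both interaction medians depended on single libraries, Prep-/- M0 replicates 2 and 3 giving the extremes.

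Same-numbered libraries correlated above 0.1 in every pair for the genotypes in M2 and for LPS in Prep-/- cultures, and in no other comparison between 2 groups. Whether the numbers mark true pairs is not known. With the replicate block and only the libraries compared, members called were 42 higher and 3 lower for the genotypes in M0, 16 higher and 2 lower in M2, 4 higher and 21 lower for M2 in Prep-/- cultures, 3 higher for the M1 interaction and 1 lower for the M2 interaction. Over all genes at that setting, 1398 of 11536 were higher and 1746 lower in M0, and 753 of 11401 and 1137 in M2. For M2 in Prep-/- cultures 1198 of 11433 were higher and 1143 lower. For the M1 interaction 1332 of 11837 were higher, and for the M2 interaction 363 of 11803 lower. With only the libraries compared and no block, 13 members were higher for LPS and 6 higher and 21 lower for M2 in Prep-/- cultures, and 2 lower for the M2 interaction. Over all genes these were 2228 of 11498, 1302 and 1276 of 11433, and 310 of 11803. With no minimum fold, 53 members were higher for the genotypes in M2, 20 higher and 69 lower for LPS and 6 and 16 for M2 in Prep+/-, and 16 and 59 for M2 in Prep-/- cultures. Shares of all genes tested are not given for that setting. DESeq2 and its size factors each gave 2 higher members for the M2 interaction, beside 757 of 16314 and 585 of 12021 genes. Removing the trend with transcript length, chosen after seeing the data, gave medians of 0.22 for the genotypes in M1 and -0.14 for the M1 interaction. Removing the trend with mean level, also chosen then, gave 0.0146 for LPS, a change of sign, and -0.0417 for M2 in Prep+/-, -0.0914 for M2 in Prep-/- and -0.185 for the M1 interaction, and the cause was not tested. Of 258 alternatives for member counts 205 stayed within 1.5 times, and of 138 for medians 128 moved by less than the spread. Of 173 calls of named members 111 held throughout, 62 were lost at least once (29 of them with the replicate block) and 0 reversed. At this depth the median SE of the M0 fold change between genotypes was 0.21 for the 136 members of lower mean count and 0.15 for the other 136.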
